A study of Gallus gallus with 6 samples.

Results

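The 100 most abundant transcripts of the laying hen's ovary were described in 3 GYR ovaries and 3 YS ovaries, with 1 RNA-seq library per hen. The members were chosen by their mean FPKM over all 6 ovaries, and they are 100 of the 21164 genes listed with an Ensembl identifier in every library. FPKM is the number of sequenced fragments of a gene, divided by transcript length and by the mapped fragments of the library, so levels of genes of different length can be compared. It is a relative quantity, in which a gene that takes more of a library leaves less for the others. YS hens belong to the Yaoshan breed, a native chicken of Guizhou. GYR hens come from green-shell males with yellow feathers mated to daughters of Yaoshan males and recessive white feather layers, and part of their genome is therefore Yaoshan. Both kinds of hen came from the same hatch, received the same diet and were killed at an age of about 37 weeks, and all visible follicles were taken off the ovary before freezing. One extraction note in the sample records names the retina, whereas the tissue entry of each record names the ovary. The identity of the tissue could not be checked against marker genes, since 0 of the 21164 identifiers matched the gene table used here.

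In messenger RNA from whole tissue, a small set of transcripts usually makes up a large part of the total. Such sets are generally led by transcripts for ribosomal proteins, subunits of the respiratory chain encoded in the mitochondrial genome, translation factors and the cytoskeleton, which most cells need in bulk. An ovary without its visible follicles holds stroma, vessels, blood and small follicles with their oocytes, granulosa and theca cells. In such a mixture, fewer cells of a type and less RNA per cell cannot be told apart. Which of these functions the members serve is not analysed here, and genes are given by identifier.

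The 100 members held between 21.3% and 28.1% of the summed FPKM of a library. The share was 21.3% in GYR_1, 21.6% in GYR_2 and 25.9% in GYR_3, against 21.8% in YS_1, 23.5% in YS_2 and 28.1% in YS_3. The highest shares were those of GYR_3 and YS_3, and the breeds overlapped. The level of the share follows from how the members were chosen. The choice used the mean over both breeds, so it does not set the difference between them, although some members are in the list through 1 breed. The mean was 22.9% ± 2.57 in GYR and 24.5% ± 3.27 in YS (SD, n = 3 each), and the difference of -1.60 percentage points was smaller than the spread between hens (two-sided exact permutation test, p = 0.5, where 3 ovaries against 3 allow no p below 0.1). It turned to 0.22 percentage points without YS_3. When each ovary in turn was left out and 100 genes were chosen on the other 5, the list shared 95 to 98 genes with the members. The members were chosen on those 5 ovaries too, so a large overlap follows from the choice. In the ovary left out, these lists held 20.9%, 21.5% and 25.7% in GYR_1 to GYR_3. They held 21.3%, 23.4% and 27.7% in YS_1 to YS_3.

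**Figure D1:**
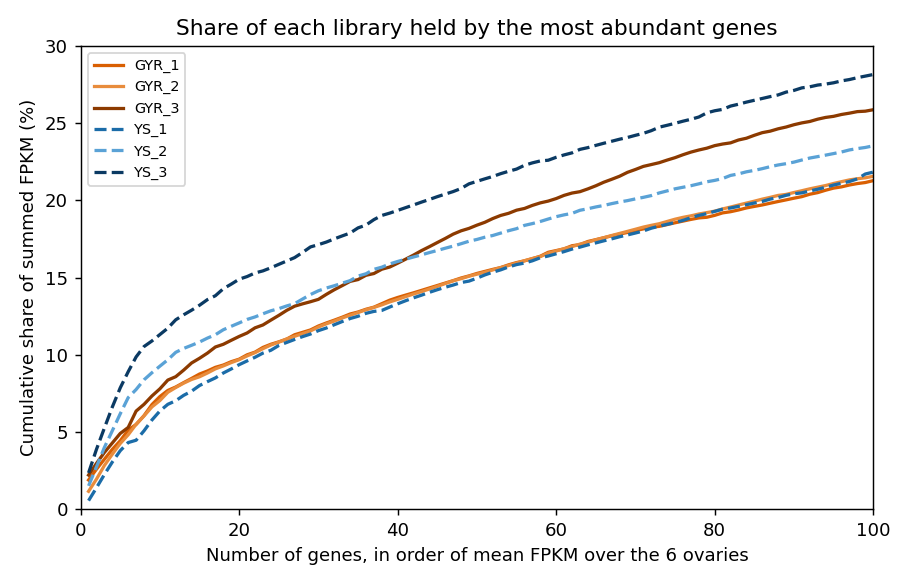
Cumulative share of each library's summed FPKM (vertical axis, in percent) held by the genes in order of their mean FPKM over the 6 ovaries (horizontal axis), with solid lines for GYR and dashed lines for YS. At 100 genes GYR_3 reached 25.9% and YS_3 28.1%, and the other 4 libraries lay between 21.3% and 23.5%.

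The shares were made up differently in the 2 ovaries numbered 3. The first 10 members held 7.80% of GYR_3 and 11.3% of YS_3, whereas members ranked 11 to 50 held 10.6% of GYR_3 and 9.92% of YS_3. Over the breeds, the first 10 members held 7.38% ± 0.39 in GYR and 8.98% ± 2.49 in YS (SD, n = 3 each), with p = 0.4 in the exact permutation test. Members ranked 11 to 50 held 8.92% ± 1.46 in GYR and 8.91% ± 0.90 in YS. Members ranked 51 to 100 held 6.61% ± 0.77 in GYR and 6.62% ± 0.48 in YS. None of the 6 share measures compared between the breeds had an exact p-value below 0.4, and all were 1 after Benjamini-Hochberg adjustment over the 6. The number of each library's own highest genes that made up 50% of its summed FPKM was 874, 949 and 686 in GYR_1 to GYR_3, against 777, 846 and 581 in YS_1 to YS_3, so both ovaries numbered 3 were the most concentrated of their breed.

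ENSGALG00000007220 was the most abundant gene on average, and it had the highest FPKM of all genes in every ovary but YS_1, where it was eighth and ENSGALG00000035334 came first. Its FPKM was 9232, 5356 and 11208 in GYR_1 to GYR_3, against 2768, 7048 and 11599 in YS_1 to YS_3. The lowest and the highest value were both from YS hens, and the GYR values lay between them. It alone held 0.56% of the summed FPKM of YS_1 and 2.35% of that of YS_3. The log2 fold change of GYR over YS was 0.43 on the log2(FPKM + 1) scale (95% interval -1.17 to 2.03, adjusted p = 0.888 from limma), and it was -0.14 without YS_1.

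The next 4 genes had similar levels and similar profiles. ENSGALG00000032142 had an FPKM of 3423, 3659 and 3816 in GYR_1 to GYR_3, against 4155, 5757 and 7536 in YS_1 to YS_3. ENSGALG00000035334 had 3152, 4091 and 3595 FPKM in GYR_1 to GYR_3, against 4286, 5849 and 6811 in YS_1 to YS_3. Both genes were lower in every GYR ovary than in every YS ovary, with YS_3 at the top. ENSGALG00000032456 had an FPKM of 3121, 3369 and 3106 in the GYR ovaries, against 4016, 5036 and 6699 in the YS ovaries. ENSGALG00000041091 had 2728, 3194 and 3120 FPKM in the GYR ovaries, against 3650, 5110 and 6117 in the YS ovaries. The GYR hens of these 4 genes thus lay close together and the YS hens far apart, with an SD of 148 to 470 FPKM in GYR and of 1240 to 1691 FPKM in YS. The log2 fold changes were between -0.69 and -0.63, with adjusted p-values between 0.734 and 0.762 from limma. The breeds did not overlap, but the differences did not pass the test. Before adjustment, the p-values from limma were between 0.141 and 0.197. In a limma fit without a variance trend over genes they were between 0.018 and 0.033, with adjusted p-values between 0.613 and 0.651.

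The remaining 5 of the first 10 genes varied in other ways. ENSGALG00000027090 had an FPKM of 3360, 2594 and 1961 in the GYR ovaries, against 2622, 4868 and 5128 in the YS ovaries, and YS_1 lay among the GYR values. ENSGALG00000007114 had the largest spread within breeds of all members, with 1768, 3160 and 5365 FPKM in the GYR ovaries, against 747, 2446 and 4734 in the YS ovaries. It was the 59th gene of YS_1 and the second of GYR_3. ENSGALG00000009621 was steady, with an FPKM of 2805, 2494 and 2219 in the GYR ovaries, against 2931 to 3313 in the YS ovaries. Its breeds did not overlap, at a log2 fold change of -0.31 (adjusted p = 0.839 from limma). ENSGALG00000014442 had 3488, 2705 and 2737 FPKM in the GYR ovaries, against 3482, 2140 and 1783 in the YS ovaries, so that both ovaries numbered 1 were high. ENSGALG00000004509 had 1891 to 2522 FPKM in the GYR ovaries, against 1967 to 2894 in the YS ovaries, and its breed means of 2250 and 2301 FPKM in the same order were the closest of the first 10.

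**Figure D2:**
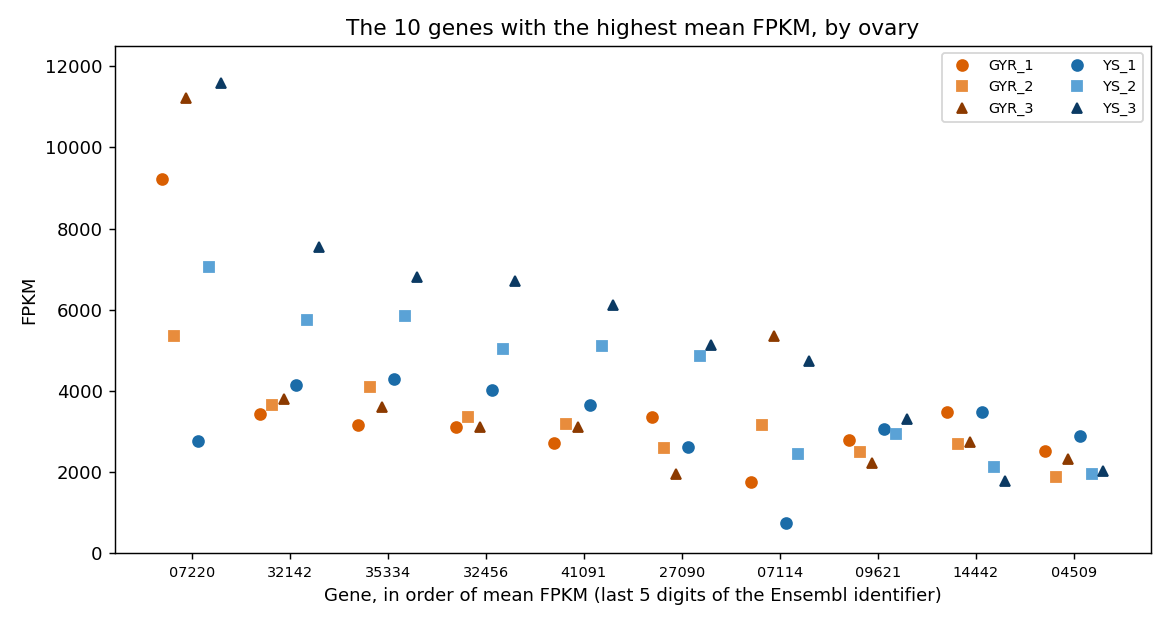
FPKM (vertical axis, linear) of the 10 genes with the highest mean, in order of that mean (horizontal axis, last digits of the identifier), with 1 point per ovary, orange for GYR and blue for YS. For the second to the fifth gene the GYR ovaries lay between 2728 and 4091 FPKM and the YS ovaries between 3650 and 7536 FPKM, whereas the first gene ran from 2768 to 11599 FPKM among YS ovaries alone.

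The end of the list was not marked by a step in the values. The members ranked 98 to 100 had a mean FPKM of 526 (ENSGALG00000052797), 525 (ENSGALG00000001559) and 525 (ENSGALG00000041277). The 3 genes just outside had 524 (ENSGALG00000008620), 521 (ENSGALG00000009856) and 515 (ENSGALG00000028451). In comparison, the median FPKM of the 14918 genes tested was between 10.2 and 11.5 in every library. The median of the members was 761, 715 and 1007 FPKM in GYR_1 to GYR_3, against 823, 679 and 851 FPKM in YS_1 to YS_3.

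Most members had a high rank in every hen, which follows in part from a choice on the mean of these same 6 ovaries. Of the 100 members, 65 were among the 100 highest genes of each of the 6 libraries, and 86 to 91 were so in any one library. A library's own 100 highest genes included 143 different genes in all, of which 43 were not members. Lists of 100 genes chosen on the mean of the GYR ovaries alone and of the YS ovaries alone shared 84 genes, which is 84% of each. The lowest rank that a member took in any of the 6 libraries had a median of 82.5. The lowest of all was that of ENSGALG00000001559, ranked 465 in GYR_3 and 14 in YS_1. The order of the members also changed between hens. Spearman's rho across the 100 members, as a description of genes that are not independent replicates, was 0.586 to 0.839 between hens of the same breed and 0.503 to 0.834 between hens of different breeds. The pair with the lowest value was GYR_3 with YS_2.

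The spread between the hens of a breed was, in the median, larger for the members than for other genes. The SD of log2(FPKM + 1) within breeds had a median of 0.36 over the members, 0.28 over the next 900 genes in order of mean FPKM and 0.30 over all 14918 genes tested, and 73 of the 100 members lay above the last of these. The first 10 members alone had a median of 0.295, against 0.298 over all genes tested, and ranks 11 to 100 had 0.365. A choice by mean FPKM also lets in genes that are high in 1 ovary, such as ENSGALG00000001559 in YS_1. This is a description, and no test of the difference was made. The added 1 also narrows the SD of genes with low FPKM, which are among all genes tested. The ratio of the highest to the lowest ovary, taken on FPKM without the added 1, had a median of 1.99 over the members. It was 1.98 over the tested genes above 0 in all 6 ovaries, and it was not calculated for the next 900 genes. SD and ratio are on different scales, so they are not set against each other. Between the highest and the lowest ovary, 52 members differed by less than 2-fold and 12 by more than 3-fold. ENSGALG00000008677 was the steadiest member, with an FPKM of 649, 583 and 578 in GYR_1 to GYR_3, against 542, 627 and 675 in YS_1 to YS_3. The breeds overlapped fully, and the log2 fold change was -0.023 (95% interval -0.52 to 0.48).

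In FPKM as deposited, GYR_3 was the ovary in which the largest number of members peaked. Of the 100 members, 12, 0 and 47 had their highest value in GYR_1 to GYR_3, against 13, 1 and 27 in YS_1 to YS_3. Over all genes tested, 23.6%, 14.4% and 15.6% had their highest value in GYR_1 to GYR_3, against 20.8%, 10.7% and 14.9% in YS_1 to YS_3. The lowest value of 40 members was in YS_2, against 11.3% of all genes tested. Of the 47 members that peaked in GYR_3, 38 belong to the largest profile group below, as do 32 of these 40. They are thus not separate observations. A choice by mean FPKM also favours genes that are high in 1 ovary. The lowest single value of any member in any ovary was 142.67 FPKM.

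When the members were grouped by the likeness of their profiles over the 6 ovaries (average linkage at a Pearson correlation of 0.8), 8 groups had 4 or more members. The groups were formed from the values they describe, so they are given without a test. The limit of 0.8 was set after the values had been seen.

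The largest group had 38 members, none of them among the first 10, led by ENSGALG00000015917 at rank 11. It held 5.89%, 6.69% and 9.69% of the summed FPKM in GYR_1 to GYR_3, against 6.42%, 5.45% and 6.52% in YS_1 to YS_3. All 38 genes peaked in GYR_3, and 32 were lowest in YS_2. Without GYR_3, the median log2 fold change of the group was 0.015 in place of 0.23, against 0.094 over all genes tested. In that fit 22 of its 38 genes were higher on average in GYR, and the share over all genes tested is not given for it. In the fit of all 6 ovaries, all 38 genes were higher in GYR, against 63.8% of all genes tested. The 38 genes were grouped by the likeness of their profiles, so they are not separate observations. With a limit of 0.7 the group had 46 members, of which 44 peaked in GYR_3.

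The second group had 13 members, with 5 of the first 10 genes, ranks 2 to 6, among them. It held 4.29%, 5.08% and 4.10% of the summed FPKM in GYR_1 to GYR_3, against 4.92%, 7.99% and 9.15% in YS_1 to YS_3. All 13 genes peaked in YS_3. YS_1 lay below GYR_2 in share, so the breeds overlapped in share. They did not overlap in the summed FPKM of the group, which was 23448.3 in GYR_2, the highest of GYR, and 24490.5 in YS_1, the lowest of YS. Of the 13 genes, 6 had every GYR ovary below every YS ovary, against 4.96% of all genes tested. The 13 genes were grouped by the likeness of their profiles, so these 6 are not separate observations. The log2 fold changes of the 13 genes ran from -0.84 to -0.48. The group's median was -0.69, and it lay between -0.96 and -0.49 when each ovary was left out in turn.

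The group of the most abundant gene had 5 members, ENSGALG00000007220 and ENSGALG00000007114 among them. It held 2.72%, 2.29% and 3.83% of the summed FPKM in GYR_1 to GYR_3, against 0.92%, 2.47% and 4.05% in YS_1 to YS_3. All 5 genes were lowest in YS_1. Its share differed 4.42-fold between the highest and the lowest ovary, more than that of any other group of 4 or more members, and both extremes were YS hens. A group of 7 members led by ENSGALG00000014442 ran the other way among the YS ovaries. It held 2.03%, 1.68% and 1.37% of the summed FPKM in GYR_1 to GYR_3, against 1.72%, 1.39% and 0.93% in YS_1 to YS_3, and all 7 genes were highest in GYR_1 and lowest in YS_3.

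**Figure D3:**
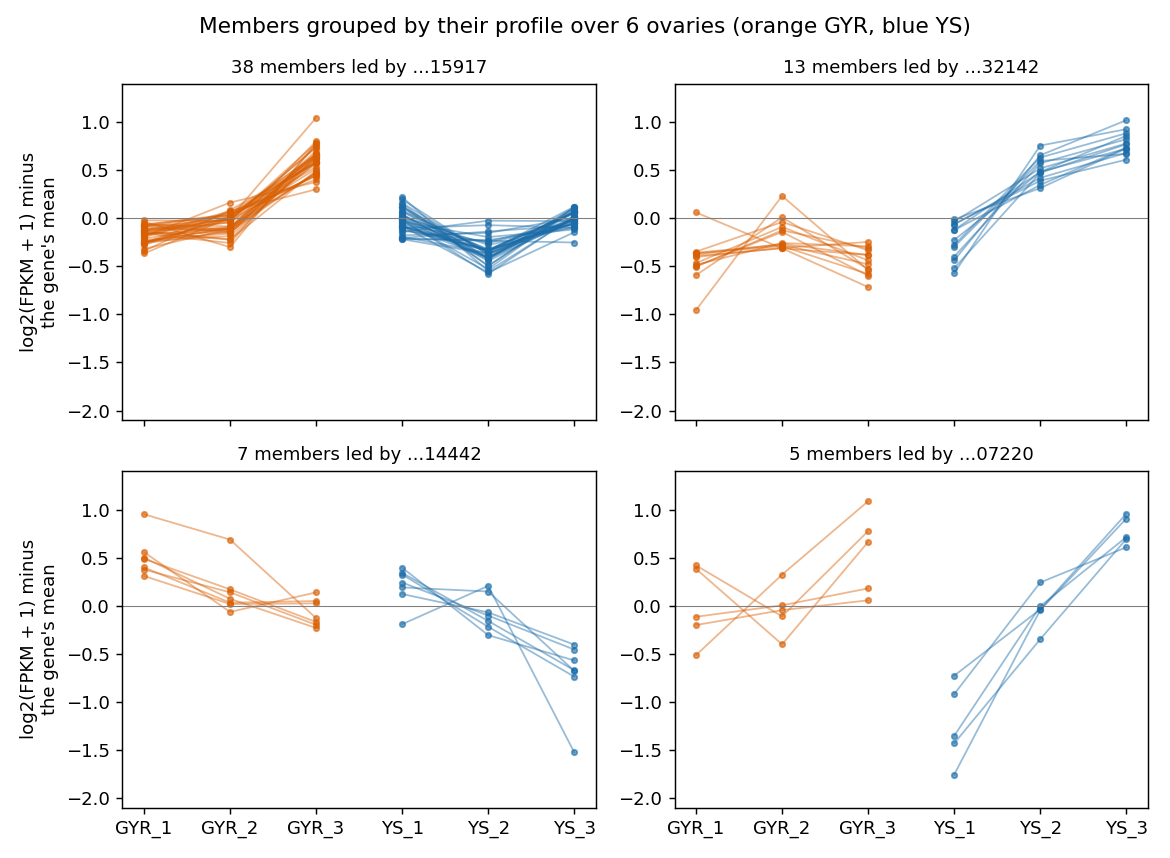
log2(FPKM + 1) of each member minus its mean over the 6 ovaries (vertical axis) in the 6 ovaries (horizontal axis, orange GYR and blue YS), for 4 profile groups of 38, 13, 7 and 5 members, with lines that join the values of a gene within a breed and mark no order of hens. The 38 genes of the first group all peaked in GYR_3, the 13 genes of the second all peaked in YS_3, and the 5 genes of the last were all lowest in YS_1.

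Same-numbered hens of the breeds deviated from their breed means in similar ways, in the members as over all genes tested. This is a description across genes, which are not independent replicates. The deviations of the members correlated at 0.29 between GYR_1 and YS_1, at 0.54 between GYR_2 and YS_2 and at 0.41 between GYR_3 and YS_3. Over all 14918 genes tested the values were 0.42, 0.31 and 0.48 in the same order. Hens with different numbers were not compared in this way. What the numbers mark is not stated. The share of all 100 members was lower in the GYR hen of each same-numbered pair, with differences of -0.55, -1.97 and -2.28 percentage points for numbers 1 to 3. In a two-sided test of sign flips, 3 such pairs allow no exact p-value below 0.25, the value found.

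The question of the study was how ovaries of the 2 kinds of hen differ in expression. The breeds were compared in a single fit of 14918 genes with limma on log2(FPKM + 1), and all 100 members were among the genes tested. Of the members, 0 had a Benjamini-Hochberg adjusted p-value under 0.05, and over all genes 0.0134% had one. The smallest adjusted p-value of a member was 0.569. It was 0.151 or more in each of the other settings tried. Before adjustment, 5 members lower in GYR passed 0.05 (3.03% of all genes), and 0 members higher in GYR did (4.27% of all genes). Among the 5, ENSGALG00000035584 and ENSGALG00000001559 averaged 452 and 250 FPKM in GYR, below the 525 of the last member. They are thus in the list through their YS values. ENSGALG00000042750 and ENSGALG00000036229, also among the 5, belong to the group of 13 genes above, so they are not separate observations. With the replicate number as a block, 12 members passed 0.05 before adjustment, 10 of them lower in GYR, but so did 16.7% of all genes. The study had asked for a more than 2-fold change with p under 0.05 before adjustment, by DESeq2. Here the same thresholds were applied to the limma fit, so the counts are not those of the study. By that rule 2 members were lower in GYR (0.845% of all genes) and 0 were higher (0.865% of all genes). One of the 2, ENSGALG00000001559, has a GYR mean below that of the last member, so it is in the list through its YS values and its difference is partly a matter of how the list was made. With the replicate block the rule took in 4 members, 3 of them lower in GYR, and 2.02% of all genes. Without YS_1 it took in 9 members, all lower in GYR, and 4.48% of all genes, of which 489 were higher and 180 lower. How many of the 9 are in the list through their YS values is not given here. The median log2 fold change was 0.13 over the members and 0.10 over all genes tested, and over the members it was -0.062 without GYR_3 and -0.0020 without YS_2. After median-of-ratios scaling the medians were 0.023 over the members and 0.0075 over all genes. The same rule then gave 82 genes higher and 167 lower in GYR, in place of 129 and 126.

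In 14 members the breeds did not overlap. Every GYR ovary was above every YS ovary in 3 members, against 8% of all genes tested, and below every YS ovary in 11 members, against 4.96% of all genes tested. Part of this follows from the choice of members, since 3 of the 11 had a GYR mean below the mean of the last member and 1 of the 3 had a YS mean below it. Of the 11, 6 belonged to the group of 13 genes above, so they are not separate observations. With median-of-ratios scaling the same 11 members were below, whereas 1 of the 3 was above. Over all genes 7.95% were then below and 5.11% above. Upper-quartile scaling also left 11 members below and 1 above, against 6.56% and 6.22% of all genes. With FPKM rescaled to the same sum in every library, 9 of the 11 were below and all 3 above, against 4.81% and 7.21% of all genes.

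ENSGALG00000004184, ranked 18, was the member with the smallest unadjusted p-value. Its FPKM was 722, 874 and 884 in GYR_1 to GYR_3, against 1570, 1504 and 2234 in YS_1 to YS_3. The highest GYR ovary was thus well below the lowest YS ovary. It averaged 827 ± 90.5 FPKM in GYR and 1769 ± 404 FPKM in YS (SD, n = 3 each), with a log2 fold change of -1.08 (standard error 0.29, 95% interval -1.75 to -0.41, adjusted p = 0.569 from limma). When each ovary was left out in turn, the log2 fold change lay between -1.18 and -0.90.

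ENSGALG00000001559, ranked 99, had the most negative log2 fold change of the members and the largest ratio of its highest ovary to its median. Its FPKM was 327, 281 and 143 in GYR_1 to GYR_3, against 1567, 340 and 495 in YS_1 to YS_3. The GYR ovaries were all below the YS ovaries, but YS_1 was 4.70 times the median of the 6. It had a log2 fold change of -1.44 with a standard error of 0.57 (adjusted p = 0.679 from limma), which was -0.80 (adjusted p = 0.389) without YS_1. The gene is a member through YS_1, since its other 5 values are below the mean FPKM of the last member, 525.

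The 2 members with the largest log2 fold change among those higher in every GYR ovary were ENSGALG00000032002 and ENSGALG00000028872. ENSGALG00000032002 had an FPKM of 961, 959 and 1634 in GYR_1 to GYR_3, against 843, 830 and 819 in YS_1 to YS_3. ENSGALG00000028872 had 999, 1083 and 1587 FPKM in GYR_1 to GYR_3, against 910, 903 and 993 in YS_1 to YS_3. In both genes the YS hens were close together and GYR_3 was far above the rest. The log2 fold changes were 0.46 and 0.36 (adjusted p = 0.744 and 0.779 from limma), and 0.21 and 0.15 without GYR_3.

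**Figure D4:**
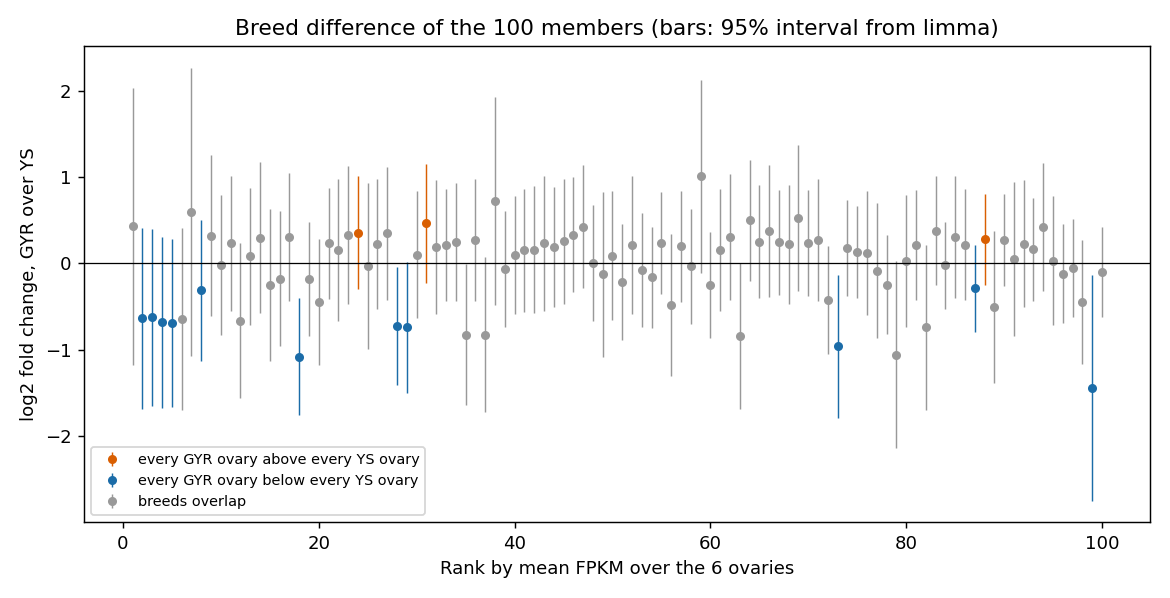
log2 fold change of GYR over YS on the log2(FPKM + 1) scale (vertical axis) of the 100 members by their rank (horizontal axis), with the 95% interval from limma as bars, orange where every GYR ovary was above every YS ovary (3 members), blue where every GYR ovary was below (11 members) and grey where the breeds overlapped. The values ran from -1.44 to 1.01, and 0 members passed an adjusted p-value of 0.05.

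The intervals set how much can be said. The standard error of the log2 fold change had a median of 0.32 over the members and 0.25 over all genes tested, and it ran from 0.22 to 0.72 among the members. These standard errors rest on 3 ovaries per breed and on the variance trend of the fit. Without trend, 11 members had an unadjusted p-value from limma under 0.05, in place of 5. In both fits 0 members had an adjusted p-value under 0.05. Differences of set size were added to simulated data to test the pipeline, but their outcome is not given here. The size of difference that 3 ovaries per breed can detect is therefore not stated.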

How the data were processed

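According to the paper's methods, the authors used fastp 0.19.3 for trimming and HISAT2 2.1.0 for alignment to GRCg7b. They deposited FPKM per gene. The submitters' processing notes instead list Bowtie2 2.0.0.5, TopHat2 2.0.0, StringTie 2.2.0 and GRCg6a, so the build is uncertain and no coordinates are given. Depth cannot be read from FPKM, of which the sum was 461965 to 506138 per library. In 5 libraries, 3458 rows without an identifier held the same values in each, none above 313.94 FPKM. They were left out and would not have entered the list. Hens were grouped by the breed in the sample records.

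Genes whose FPKM averaged 0.5 or more were tested with limma 3.58.1 (lmFit, eBayes with trend, R 4.3.3) on log2(FPKM + 1), two-sided, with Benjamini-Hochberg adjustment. The pipeline was tested on simulated data. Shares were compared with exact permutation tests, and other values came from Python 3.11.15 (scipy 1.17.1, pandas 2.3.3, numpy 2.4.6, and matplotlib 3.10.9 for plots). Deviations of same-numbered hens from their breed mean correlated over 14918 genes at 0.42, 0.31 and 0.48 for numbers 1 to 3, so the fit with the replicate block is given where it moved a count. That the numbers pair the hens rests on these values alone.

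The members, lists and tests were chosen with earlier results of these data known. Genes named are the 10 with the highest mean, the last 3 members and the next 3 genes, up to 2 members in each direction with the largest log2 fold change among those whose breeds did not overlap, the members with the largest and the smallest spread within breeds, the one with the largest ratio of its highest to its median ovary, and the first gene of a profile group, the last chosen after its values were seen. The gene table (RefSeq, GRCg7b, 25635 genes) matched 0 identifiers, so lists by gene class and cell type markers, set for the case that symbols could be had, were not used.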

Additional observations from a re-analysis of the deposited data

How the results depend on the processing

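The number of members under an adjusted p-value of 0.05 was 0 by limma in each of the 14 alternatives. In these, 2 to 12 members and 4.38% to 16.7% of all genes had an unadjusted p-value under 0.05. The highest of both came with the replicate block. In the fit reported, 5 members and 7.30% of all genes did. With a robust variance estimate 9 members did (7.29% of all genes), and without trend 11 did (7.38%), all of these members lower in GYR. ENSGALG00000001559, which is in the list through its YS values, is among them in both fits. Over all genes, limma called 2 genes. It called 1 with a pseudocount of 0.1, no filter on low values, the replicate block, upper-quartile scaling, or a variance estimate without trend (the last chosen after the data were seen), 5 with FPKM rescaled to the same sum in every library, and 1 to 5 when single ovaries were left out (5 without GYR_3, 4 without YS_1 and 1 in each of the other fits). The number of members past the study's rule was 2, and it was 1 without the filter on low values (1.10% of all genes, against 1.71% in the fit reported), 4 with the replicate block (2.02%), 4 with median-of-ratios scaling (1.67%) and 1 to 9 when single ovaries were left out, with 1 without GYR_1 (1.45%), 4 without GYR_3 (1.98%) and 9 without YS_1 (4.48%). The difference in the members' share of summed FPKM lay between -3.09 and 0.22 percentage points when single ovaries were left out, above 0 only without YS_3. It was -1.88 to -1.44 with other ways of choosing or counting the members. Of 210 log2 fold changes of 15 named members under the alternatives, 203 kept their sign. The other 7 were all from fits without 1 ovary, in which the log2 fold change ranged from -0.14 to 0.89 for ENSGALG00000007220, from -0.13 to 1.20 for ENSGALG00000007114, from -0.12 to 0.16 for ENSGALG00000004509 and from -0.11 to 0.048 for ENSGALG00000008677. The cause was not tested. The median SD within breeds of the members was 0.36 with a pseudocount of 0.1 or median-of-ratios scaling and 0.33 with equal sums. The median over other genes is not given under these settings, so the difference from other genes is shown only for the main setting. Counting error was not estimated, since FPKM holds no counts. The p-values from limma rest on the spread between 3 hens per breed, with the variance of each gene drawn towards a trend over all genes tested.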

Other observations

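The 3 genes just outside the list differed in their profiles. ENSGALG00000009856 had an FPKM of 311, 373 and 303 in GYR_1 to GYR_3, against 649, 725 and 762 in YS_1 to YS_3, with no overlap between the breeds. ENSGALG00000028451 had 482, 418 and 851 FPKM in GYR_1 to GYR_3, against 343, 303 and 694 in YS_1 to YS_3, and both ovaries numbered 3 were high. ENSGALG00000008620, the first gene outside, had 412, 479 and 741 FPKM in GYR_1 to GYR_3, against 493, 452 and 567 in YS_1 to YS_3, with overlap.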
